A study of Homo sapiens with 6 samples.

Results

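The BCL2 family sets whether a cell releases cytochrome c from its mitochondria, and its transcripts were read here in liver cancer cells with and without knockdown of TRIM15. The members were 10 genes taken by gene name from the deposited expression table of 58735 gene rows. They comprise 3 anti-apoptotic genes (MCL1, BCL2L1 and BCL2L2), 2 effectors (BAX and BAK1) and 5 BH3-only genes (BID, BBC3, BMF, PMAIP1 and BCL2L11). Each member matched 1 row of the table.

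RNA sequencing was done on 6 libraries of Huh7, an established human hepatocellular carcinoma line, grown in RPMI-1640 with fetal bovine serum. The control group was 3 libraries of cells with a control short hairpin RNA (shcontrol), and the knockdown group was 3 libraries of cells with a short hairpin RNA against TRIM15 (shTRIM15), which encodes a tripartite motif protein of the ubiquitin ligase kind. The comparison asks how transcript levels differ when TRIM15 is reduced. The number of hairpins, their sequences and how the cells were selected are not given in the sources used here. Nothing in the labels says that the libraries of a group came from separate cultures, so p-values measure the spread between these libraries, which may be technical.

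BCL2 family proteins meet at the mitochondrial outer membrane. Anti-apoptotic members hold the effectors BAX and BAK in check, BH3-only proteins occupy the groove of the anti-apoptotic members or activate the effectors, and active effectors open pores through which cytochrome c leaves. Cytochrome c then assembles APAF1 into the apoptosome, which activates the caspases that dismantle the cell. In hepatocytes, MCL1 and BCL-XL (the product of BCL2L1) are the main survival members. Protein was not measured in these data.

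All members, of whatever class, carry the BH3 helix by which they bind each other. The coding sequence of its core is shown because it is the feature that unites these 10 genes. It was found in the principal GENCODE 29 transcript of each gene by searching the translated sequence for leucine or methionine, any 3 residues, glycine or alanine, then aspartate. Each sequence is 30 bases of the sense strand, 5′ to 3′, with the 6 codons of the core in capitals.
MCL1: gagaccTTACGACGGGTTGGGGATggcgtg
BCL2L1: caagcgCTGAGGGAGGCAGGCGACgagttt
BCL2L2: caagccATGCGGGCAGCTGGAGATgagttc
BAX: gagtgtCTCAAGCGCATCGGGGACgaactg
BAK1: cggcagCTCGCCATCATCGGGGACgacatc
BID: aggcacCTCGCCCAGGTCGGGGACagcatg
BBC3: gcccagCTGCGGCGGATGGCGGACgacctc
BMF: cgaaagCTTCAGTGCATTGCAGACcagttc
PMAIP1: actcaaCTCAGGAGATTTGGAGACaaactg
BCL2L11: caagagTTGCGGCGTATTGGAGACgagttt

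The pattern occurred exactly once in each of the 10 coding sequences. It is loose: 28.97% of the 19666 coding sequences in the annotation held it, and 14.4% of the 7766 that were no longer than the longest member. On GRCh38 the windows lie at chr1:150578871-150578900 (minus strand, exon 1 of 3) in MCL1, chr20:31721928-31721957 (minus, exon 2 of 3) in BCL2L1 and chr14:23307897-23307926 (plus, exon 3 of 4) in BCL2L2. The effector windows lie at chr19:48955781-48955810 (plus, exon 3 of 6) in BAX and chr6:33575393-33575422 (minus, exon 4 of 6) in BAK1. The BH3-only windows lie at chr22:17739421-17739450 (minus, exon 4 of 6) in BID, chr19:47226585-47226614 (minus, exon 3 of 4) in BBC3, chr15:40104201-40104230 (minus, exon 4 of 5) in BMF, chr18:59902667-59902696 (plus, exon 2 of 2) in PMAIP1 and chr2:111150097-111150126 (plus, exon 4 of 5) in BCL2L11. Over the 18 core bases, identity between members ranged from 5 bases (BCL2L2 and BAK1) to 14 bases (BAK1 and BID). BBC3 and BCL2L11 shared 13.

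Depth was 17715210 to 18217903 reads in the control libraries and 17332508 to 19556855 in the knockdown libraries, counted back from the deposited FPKM (reads adjusted for the length of the gene and the size of the library). TRIM15 fell from 5.17, 5.09 and 4.88 FPKM in the control libraries to 3.23, 2.11 and 2.51 FPKM in the knockdown libraries (log2 fold change -0.75, limma adjusted p = 0.00416), which matched the labels. Log2 fold changes of genes are given on FPKM + 1 throughout, a scale that understates changes of low genes. An exact two-sided permutation test for TRIM15 gave p = 0.1, the smallest that 3 against 3 libraries allow. All 10 markers of hepatocytes and liver cancer were at 0.5 FPKM or more in every library, with summed levels of 2527 to 2538 FPKM in control and 2444 to 2471 FPKM in knockdown. All 6 endothelial markers and 6 of 8 immune markers stayed below 0.5 FPKM in all libraries, with CDH5 and MS4A1 at 0. The other 2 immune markers were CD14 at 13.3 to 14.5 FPKM and LYZ at 2.84 to 3.79 FPKM. Of the 10 hepatocyte and liver cancer markers, KRT8 and KRT18 were called lower (log2 fold changes -0.13 and -0.19). Among 8 fibroblast and stellate markers 4 stayed below 0.5 FPKM, and all 8 summed to 64.5 to 68.2 FPKM in control and 57.4 to 60.0 FPKM in knockdown. Most of that sum was LUM, which fell from 57.6 ± 1.95 to 50.7 ± 1.25 FPKM (SD, n = 3), and COL1A2 was also called lower (log2 fold changes -0.18 each). The part of these markers in the members' changes was not tested.

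All 10 members passed the filter on low values, 0.5 FPKM in at least 3 libraries, and were tested. Past an adjusted p of 0.05 in limma, 3 members rose (BCL2L1, BAX and BBC3), 2 fell (MCL1 and BMF) and 5 were not called. Over all 14847 genes tested, 19.0% were called, 8.93% higher and 10.1% lower in knockdown. With reads scaled by plain library size in place of the authors' scaling, the calls over all genes were 1673 higher and 1258 lower against 1326 and 1498, and the members' calls were 3 higher and 1 lower. The FPKM of the groups did not overlap for 7 members, against 37.8% of all genes tested. The members' median log2 fold change was -0.02 and that of all genes was 0.00. The members therefore moved in both directions, and each class with a gene called lower also had a gene called higher. In bulk RNA, fewer cells of a type and less RNA per cell cannot be told apart.

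**Figure D1:**
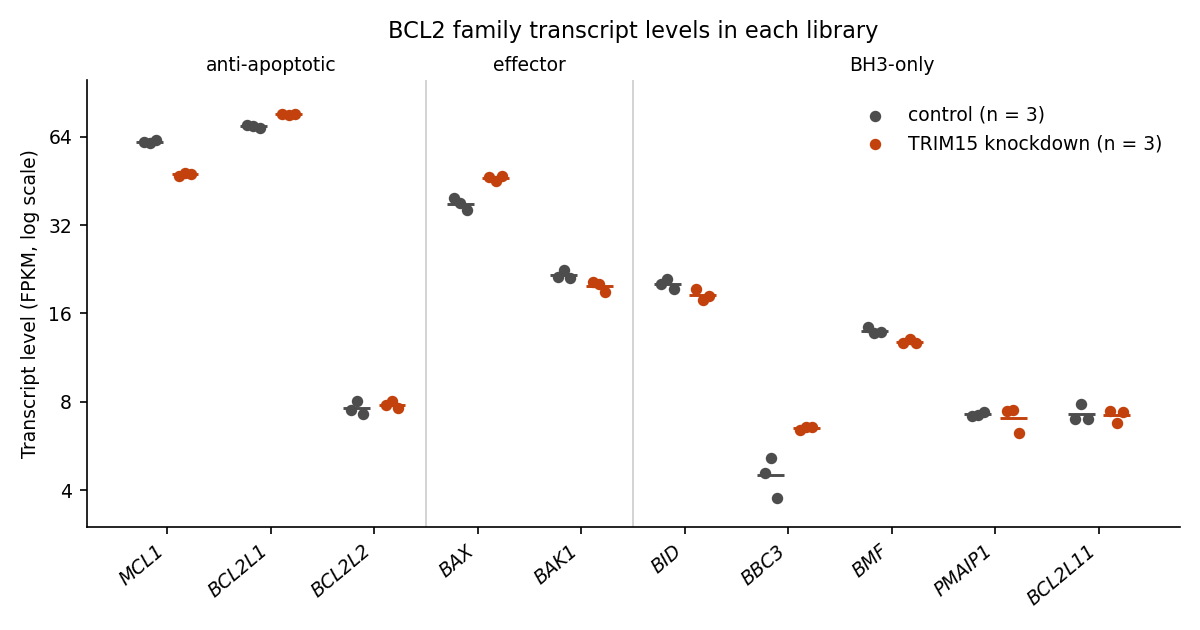
FPKM of each member in each library on a log axis, with points for the 3 control and 3 knockdown libraries, bars for the group means and vertical lines between the classes. MCL1 lies lower and BAX and BBC3 lie higher in all 3 knockdown libraries, while BCL2L2, PMAIP1 and BCL2L11 overlap.

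Among the anti-apoptotic genes, MCL1 had the member set's lowest adjusted p. MCL1 (ENSG00000143384, chr1:150574551-150579738, minus strand) encodes a short-lived survival protein that binds BAK and several BH3-only proteins. Its level was 61.48, 60.73 and 62.40 FPKM in the control libraries and 47.01, 48.00 and 47.95 FPKM in the knockdown libraries. The gap between the nearest libraries of the groups was several times the range within either group. From 61.5 ± 0.837 to 47.7 ± 0.559 FPKM (SD, n = 3), MCL1 fell by 22.6% (log2 fold change -0.36, SE 0.0209, limma adjusted p = 0.000186). It rested on 3679 to 4951 reads per library. Of all genes tested, 820 had a larger absolute log2 fold change than MCL1, and the median absolute change of called genes was 0.22.

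BCL2L1 moved the other way by a smaller step. BCL2L1 (ENSG00000171552, chr20:31664452-31723989, minus strand) encodes BCL-XL, which holds both BAX and BAK. It was at 70.21, 69.58 and 68.75 FPKM in control and at 76.50, 76.05 and 76.45 FPKM in knockdown libraries. Every knockdown library was above every control library. The rise from 69.5 ± 0.729 to 76.3 ± 0.245 FPKM (SD, n = 3) was 9.81% (log2 fold change 0.13, 95% interval 0.09 to 0.18, limma adjusted p = 0.00363). The antisense gene ABALON overlaps BCL2L1 and stood at 4.61 FPKM in control and 4.66 FPKM in knockdown. FPKM per gene do not separate the long and short splice forms of MCL1 and BCL2L1, whose products differ in function.

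BCL2L2, which encodes the survival protein BCL-W (ENSG00000129473, chr14:23298790-23311759, plus strand), was not called. Its levels overlapped at 7.51, 8.07 and 7.30 FPKM in control and 7.78, 8.03 and 7.62 FPKM in knockdown (log2 fold change 0.03, 95% interval -0.07 to 0.14, limma adjusted p = 0.687). The read-through gene BCL2L2-PABPN1, which shares its exons, was at 0.336 and 0.265 FPKM. HOMEZ, which overlaps BCL2L2 on the opposite strand, was at 3.43 and 3.23 FPKM. The sources used here do not state whether counting used strand, so reads of overlapping genes may be shared.

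The effectors differed from each other. BAX (ENSG00000087088, chr19:48954815-48961798, plus strand) encodes the effector that moves from the cytosol into the outer membrane. It was at 39.58, 38.17 and 35.97 FPKM in control and at 46.60, 45.21 and 46.93 FPKM in knockdown libraries. All 3 knockdown libraries lay above all 3 control libraries, and control replicate 3 was the lowest. From 37.9 ± 1.82 to 46.2 ± 0.913 FPKM (SD, n = 3), BAX rose by 22.0% (log2 fold change 0.28 on FPKM + 1, SE 0.0372, limma adjusted p = 0.00336).

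BAK1 (ENSG00000030110, chr6:33572547-33580293, minus strand) encodes BAK, the effector that resides in the outer membrane. It was at 21.38, 22.49 and 21.09 FPKM in control and 20.54, 20.20 and 18.90 FPKM in knockdown libraries. The groups did not overlap, but the gap between the nearest libraries was smaller than the range within either group. The log2 fold change was -0.12 (95% interval -0.21 to -0.02), and the limma adjusted p of 0.0865 did not pass. The ratio of BAX to BAK1 FPKM was 1.75 ± 0.0866 in control and 2.33 ± 0.133 in knockdown (SD, n = 3), without overlap.

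Of the BH3-only genes, 1 rose, 1 fell and 3 were not called. BBC3 (ENSG00000105327, chr19:47220822-47232766, minus strand) encodes PUMA, which binds all anti-apoptotic members. It was at 4.59, 5.15 and 3.76 FPKM in control and at 6.43, 6.56 and 6.57 FPKM in knockdown libraries. The control libraries were spread and the knockdown libraries were close together, with no overlap. From 4.50 ± 0.700 to 6.52 ± 0.0761 FPKM (SD, n = 3), BBC3 rose by 44.9%. Its log2 fold change on FPKM + 1 was 0.46 (SE 0.0887, 95% interval 0.25 to 0.67, limma adjusted p = 0.0135), and on FPKM + 0.1 it was 0.54. BBC3 rested on 217 to 412 reads per library. Leaving out each library in turn gave log2 fold changes of 0.36 to 0.54 and adjusted p values up to 0.0485.

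BMF, the other called BH3-only gene, changed little and its call was fragile. BMF (ENSG00000104081, chr15:40087890-40108892, minus strand) encodes a BH3-only protein that can be held at the cytoskeleton. It was at 14.40, 13.70 and 13.83 FPKM in control and 12.65, 13.14 and 12.70 FPKM in knockdown libraries. The groups did not overlap, and BMF fell by 8.20% (log2 fold change -0.11, SE 0.0318, limma adjusted p = 0.0475). The call was lost in 11 of 16 alternatives, including the omission of any of the 6 libraries, where the adjusted p was up to 0.135.

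BID (ENSG00000015475, chr22:17734138-17774770, minus strand), which links death receptors to mitochondria once CASP8 cleaves its product, was at 20.19, 20.94 and 19.39 FPKM in control and 19.32, 17.85 and 18.41 FPKM in knockdown. The nearest libraries of the groups almost touched. Its log2 fold change of -0.12 (95% interval -0.21 to -0.02) had a limma adjusted p of 0.0894 and was not called. PMAIP1 (ENSG00000141682, chr18:59899948-59904306, plus strand) encodes NOXA, which binds MCL1 and promotes its turnover. It was at 7.15, 7.20 and 7.39 FPKM in control and 7.45, 7.49 and 6.25 FPKM in knockdown, with knockdown replicate 3 apart from the rest. The log2 fold change was -0.04 (95% interval -0.19 to 0.12, limma adjusted p = 0.75), and 0.04 without that library.

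BCL2L11 (ENSG00000153094, chr2:111119378-111168447, plus strand) encodes BIM, a BH3-only protein that activates BAX and BAK and binds all survival members. It was at 6.99, 7.84 and 6.98 FPKM in control and 7.46, 6.78 and 7.40 FPKM in knockdown. The groups overlapped, with a log2 fold change of -0.01 (95% interval -0.14 to 0.12, limma adjusted p = 0.938). The intervals of BCL2L11 and PMAIP1 leave out a change as large as that of BBC3. MIR4435-2HG overlaps BCL2L11 on the opposite strand and was at 2.45 FPKM in control and 2.55 FPKM in knockdown.

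**Figure D2:**
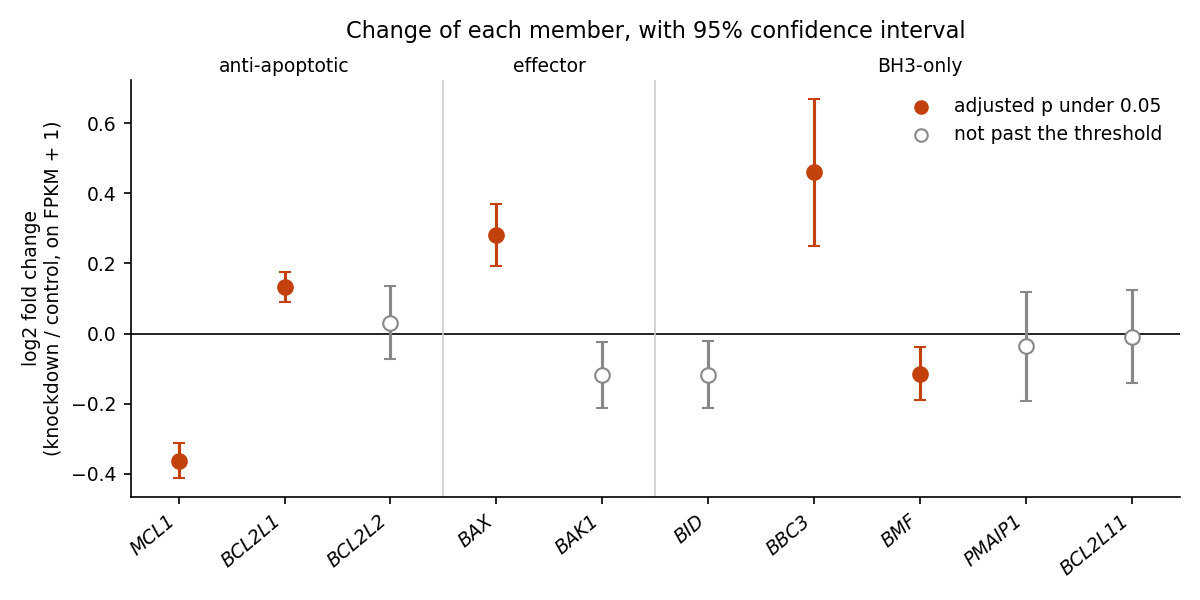
Log2 fold change of each member on the FPKM + 1 scale with its 95% confidence interval from limma, filled where the adjusted p passed 0.05 and open where it did not. MCL1 at -0.36 and BBC3 at 0.46 lie at the ends, and the intervals of BCL2L2, PMAIP1 and BCL2L11 include 0.

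Set against each other within a library, the members that moved in opposite directions gave ratios well apart. These ratios are descriptions with no test, since the members were chosen with results known. Where a gene that rose is divided by a gene that fell, neither overlapping, the ratio must separate the groups. It then adds no result beyond the members' own changes. The BAX to MCL1 ratio of FPKM was 0.644, 0.629 and 0.576 in control and 0.991, 0.942 and 0.979 in knockdown libraries, a mean 1.57 times higher in knockdown. The BBC3 to MCL1 ratio was 0.0747, 0.0848 and 0.0602 in control and 0.137 in each knockdown library, 1.87 times higher. Against the more abundant survival gene the difference was smaller, with a BAX to BCL2L1 ratio of 0.545 ± 0.0205 in control and 0.606 ± 0.0101 in knockdown (SD, n = 3), 1.11 times higher. Both survival genes also shifted against each other, since the BCL2L1 to MCL1 ratio went from 1.13 ± 0.0243 to 1.60 ± 0.0225 (SD, n = 3).

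The summed level of the anti-apoptotic members was 138.7 ± 0.453 FPKM in control and 131.8 ± 0.442 FPKM in knockdown (SD, n = 3), a fall of 4.96% without overlap. The summed level of the effectors was 59.6 ± 2.17 and 66.1 ± 0.900 FPKM, also without overlap. The summed BH3-only level overlapped at 53.2 ± 1.74 and 52.2 ± 1.03 FPKM. Within the anti-apoptotic sum MCL1 and BCL2L1 moved in opposite directions, and within the BH3-only sum BBC3 rose while the means of BID and BMF were lower. The effector to anti-apoptotic ratio was 0.438, 0.438 and 0.412 in control and 0.511, 0.495 and 0.499 in knockdown libraries. The BH3-only to anti-apoptotic ratio was 0.383 ± 0.0127 and 0.396 ± 0.00911 (SD, n = 3), with overlap, a log2 difference of 0.05 that became 0.35 without the highest member of each class. Without its highest member, BAX, the effector class sum had a log2 difference of -0.12 in place of 0.15, so its direction is that of BAX. Without BCL2L1, the anti-apoptotic sum had a log2 difference of -0.32 in place of -0.07.

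**Figure D3:**
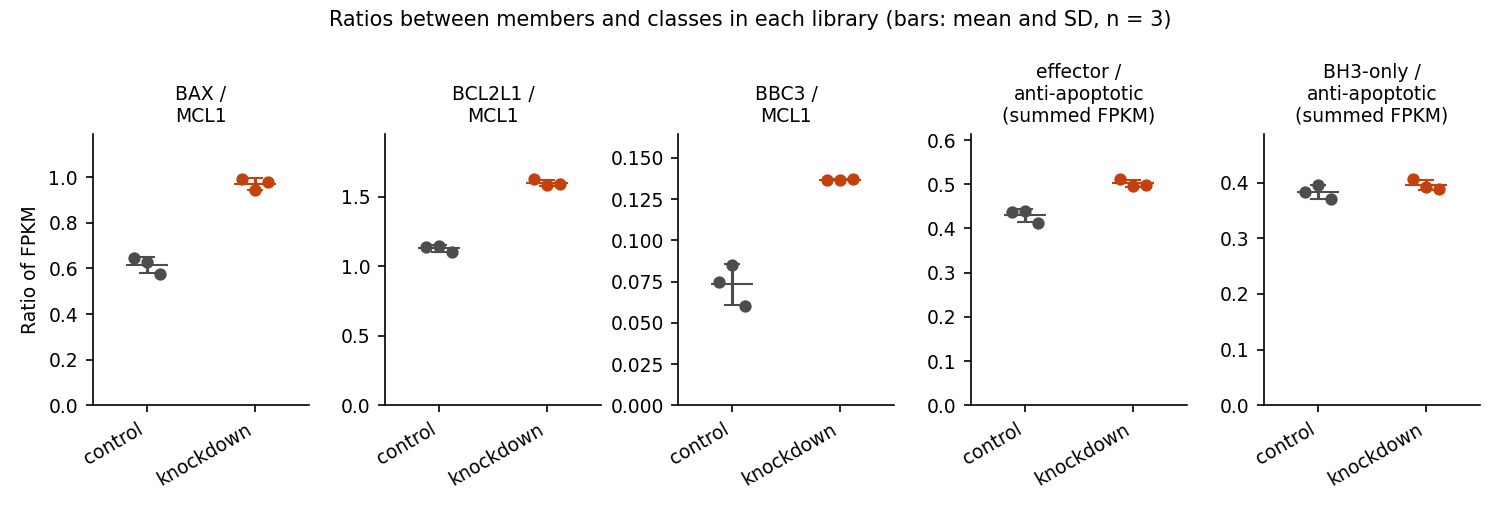
Ratio of FPKM in each of the 3 control and 3 knockdown libraries, for 3 pairs of genes and 2 pairs of class sums, with a long line for the mean and a bar for the SD, each axis starting at 0. The first 4 ratios separate the groups, and the BH3-only to anti-apoptotic ratio overlaps.

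Per gene length, the order of levels in control was BCL2L1, MCL1, BAX, BAK1, BID, BMF, BCL2L2, BCL2L11, PMAIP1 and BBC3. The ranges of BCL2L2 and BCL2L11 overlapped, as did those of BCL2L11 and PMAIP1. In knockdown the order of means was the same, but BAX (45.2 to 46.9 FPKM) came up to just under MCL1 (47.0 to 48.0 FPKM). The knockdown ranges of BAK1 and BID overlapped, as did those of BCL2L11 and PMAIP1 and those of PMAIP1 and BBC3. This order rests on the length the authors used, which counts all exons of a gene. For BAX that length is 2587 bases against 793 in the principal transcript, and for BCL2L11 it is 6658 against 1522. Scaled to the principal transcript, BAX was the highest member at 123.7 ± 5.94 FPKM in control and 150.9 ± 2.98 FPKM in knockdown (SD, n = 3). BCL2L11 was at 31.8 ± 2.16 FPKM in control. On that scale the order of means differed between the groups. BBC3 was lowest in control at 7.79 ± 1.21 FPKM, with a range that overlapped PMAIP1. In knockdown, at 11.3 ± 0.132 FPKM, BBC3 lay above BCL2L2 and PMAIP1. The choice of length leaves each gene's own fold change as it is.

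Of 13 other BCL2 family genes, 7 reached the filter, of which 1 rose and 2 fell, with a median log2 fold change of -0.03. Over all genes tested, 8.93% rose and 10.1% fell, and the same shares apply to the lists that follow. These lists were chosen with earlier results of these data known. BCL2 itself was at 0.0270 to 0.0517 FPKM over the 6 libraries and was not tested, nor were BCL2A1, BCL2L10, HRK, BCL2L14 and BCL2L15. BNIP3L, a mitophagy receptor, fell from 16.6 ± 0.440 to 12.2 ± 0.510 FPKM with n = 3 (SD; log2 fold change -0.41, limma adjusted p = 0.000922). PNMA2, which overlaps BNIP3L on the opposite strand with 81.3% as many reads, had a log2 fold change of -0.16. BNIP3, a relative of BNIP3L, fell from 27.6 ± 0.852 to 23.8 ± 0.564 FPKM. BCL2L13, another outer membrane protein with a role in mitophagy, rose from 16.0 ± 0.351 to 19.4 ± 0.579 FPKM (log2 fold change 0.26).

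Downstream of the mitochondria, 5 genes are reported from a longer apoptosome and caspase list. All 5 were called, 2 higher and 3 lower. Over all genes tested 19.0% were called, but the share over the whole list is not given here. Their median log2 fold change was -0.18. APAF1, the scaffold of the apoptosome, fell from 5.32 ± 0.392 to 3.36 ± 0.138 FPKM with n = 3 (SD; log2 fold change -0.53, limma adjusted p = 0.00147). ANKS1B, which overlaps APAF1 on the opposite strand with 21.7% as many reads, had a log2 fold change of -0.04. CYCS, which encodes cytochrome c, fell from 69.1 ± 2.22 to 56.3 ± 0.692 FPKM (log2 fold change -0.29). The 2 higher genes were CASP9 (log2 fold change 0.23) and CASP6 (0.28), the latter called in 10 of 16 alternatives. MCUB overlaps CASP6 on the opposite strand with 42.9% as many reads and had a log2 fold change of -0.11.

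Among 7 inhibitors of apoptosis and their antagonists, 6 were tested, 1 rose and 1 fell. XIAP, which blocks caspases directly, fell from 6.26 ± 0.210 to 4.82 ± 0.163 FPKM with n = 3 (SD; log2 fold change -0.32). BIRC5 encodes survivin, which also serves in mitosis, and rose from 30.4 ± 0.563 to 36.2 ± 0.669 FPKM (log2 fold change 0.24). Of 9 tested death receptor genes, 1 rose and 0 fell in limma. The risen gene was TRADD, an adaptor of the TNF receptor (log2 fold change 0.26). At an unadjusted p under 0.05, 2 of these genes were higher and 1 lower, and limma voom on the recovered reads called 2 higher and 0 lower.

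At the outer membrane, 3 of 6 partners of BAX and BAK fell and 0 rose, against 10.1% and 8.93% of all genes tested. The median log2 fold change was -0.11. At an unadjusted p under 0.05, and by voom, 0 were higher. VDAC1, the main channel of that membrane, fell from 131.1 ± 3.10 to 106.8 ± 0.854 FPKM with n = 3 (SD; log2 fold change -0.29, limma adjusted p = 0.000429). VDAC2, to which BAK binds, fell by 0.17 on the log2 scale. DNM1L, the fission GTPase, fell by 0.15, a call held in 9 of 16 alternatives. YARS2, which overlaps DNM1L on the opposite strand with 29.3% as many reads, had a log2 fold change of 0.25.

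The genes whose products set the stability of MCL1 protein gave no call in limma. Past the threshold were 0 of 9, against 19.0% of all genes tested, and the median log2 fold change was 0.01. At an unadjusted p under 0.05, FBXW7 and GSK3A were higher and 0 were lower, and voom on the recovered reads called 4 higher and 1 lower. Among 7 tested transcription factors known as regulators of BH3-only genes, 4 rose and 0 fell, against 8.93% and 10.1% of all genes tested. Their median log2 fold change was 0.11. The 4 were DDIT3, JUN, MYC and ATF4, factors of stress and growth signalling. JUN rose from 41.0 ± 1.35 to 51.7 ± 0.798 FPKM with n = 3 (SD; log2 fold change 0.33) and MYC from 17.0 ± 0.481 to 20.7 ± 1.18 FPKM (log2 fold change 0.27). ATF4 rose by 0.11 on the log2 scale, a call held in 12 of 16 alternatives. DDIT3 rose from 9.43 ± 0.670 to 14.0 ± 1.26 FPKM (log2 fold change 0.52), but it overlaps 2 genes on the opposite strand. Of these, MBD6 had 312% as many reads and a log2 fold change of 0.30, and MARS had 2229% as many reads and a log2 fold change of 0.01. At an unadjusted p under 0.05, 0 of these factors were lower and 4 higher, and voom gave the same counts.

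**Figure D4:**
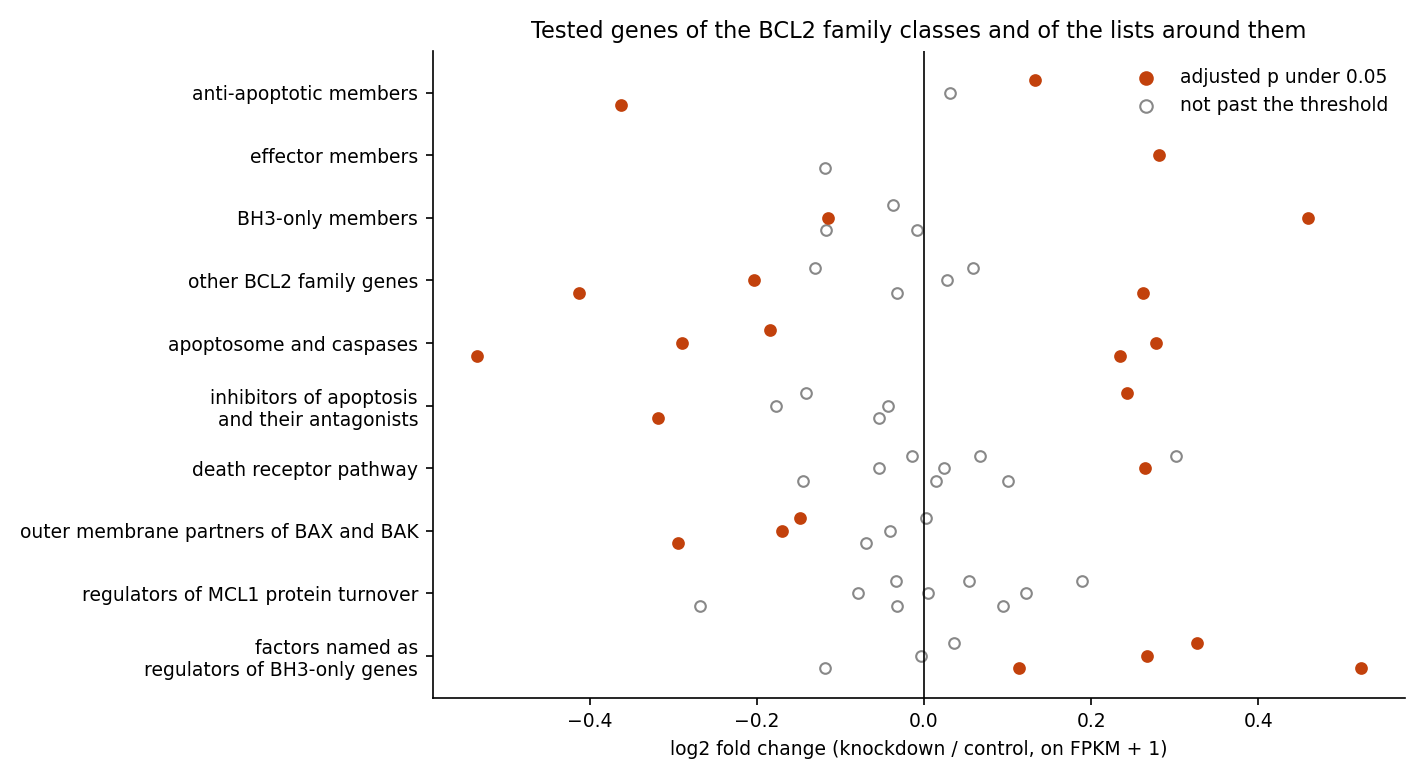
Log2 fold change on the FPKM + 1 scale of every tested gene in the 3 member classes and 7 lists around them, filled where the limma adjusted p passed 0.05. DDIT3 at 0.52 lies farthest right, the 5 apoptosome and caspase genes shown are filled, and the list of MCL1 turnover regulators has 0 filled points.

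For 3 members the genes of most similar pattern over the 6 libraries were looked up among 10436 coding genes averaging 100 reads or more, as a description. Nearest to MCL1 were KLF12 (Pearson's r 0.9998), PDIA3 (r 0.9992) and CCNC (r 0.9988), and 744 genes had an r above 0.95. Nearest to BAX were AMBRA1, GYS1 and RFX1 (r 0.997 to 0.999), and nearest to BBC3 were ARPC4, ZER1 and RNF123 (r 0.994 to 0.995). With 2 groups that differ, a gene that shifts clearly in the same direction as the member tends to give a high r. All genes of a library also share that library's depth.

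The annotated 3′ UTRs were also described by short words. Of 15601 words of 7 bases scanned in the sense strand of 11358 annotated 3′ UTRs, the leading pair was ATGAATA and TGAATAA, which overlap by 6 bases. They were picked for their link with these fold changes, so the numbers that follow describe and do not test. Of 2950 tested genes with either word, 28% fell and 3.59% rose, with a median log2 fold change of -0.08. Of 8408 genes with neither word, 6.57% fell and 13.4% rose, with a median of 0.03. The sites in the members are shown with 7 bases on either side and the word in capitals.
MCL1, UTR base 638: attagttATGAATAtggatat
MCL1, UTR base 2069: aataggtATGAATAagatgac
MCL1, UTR base 2070: ataggtaTGAATAAgatgact
BCL2L11, UTR base 367: caatttgTGAATAActtttgt

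In MCL1 the first site is at chr1:150576724-150576744 and the overlapping pair at chr1:150575293-150575313 and chr1:150575292-150575312, all in the last of 3 exons. The BCL2L11 site is at chr2:111164591-111164611 in exon 5 of 5. MCL1, which fell, thus held both words, and BCL2L11, with a log2 fold change of -0.01, held 1 of them. The other 8 members held neither word, among them BMF, which fell, and all 3 members that rose. Shorter 3′ UTRs have less room for a word. The annotated lengths were 162 bases in BAX, 975 in BBC3 and 1497 in BCL2L1, against 2819 in MCL1 and 3897 in BMF. The part of length was not tested. In the 7 lists around the family, 8 of 9 genes that fell held a word, against 1 of 8 that rose and 4 of 30 not called, counting genes with a 3′ UTR of at least 50 bases. The 8 include APAF1, CYCS, XIAP, VDAC1 and BNIP3L, while BIRC5 and BCL2L13 held neither. Over all tested genes scanned, 826 that fell held a word and 552 did not. Of those that rose, 106 held a word and 1124 did not. The list counts are part of this pattern over all genes, from which the words were picked. The part of these words in the changes was not tested, and they were not compared with a hairpin sequence.

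**Figure D5:**
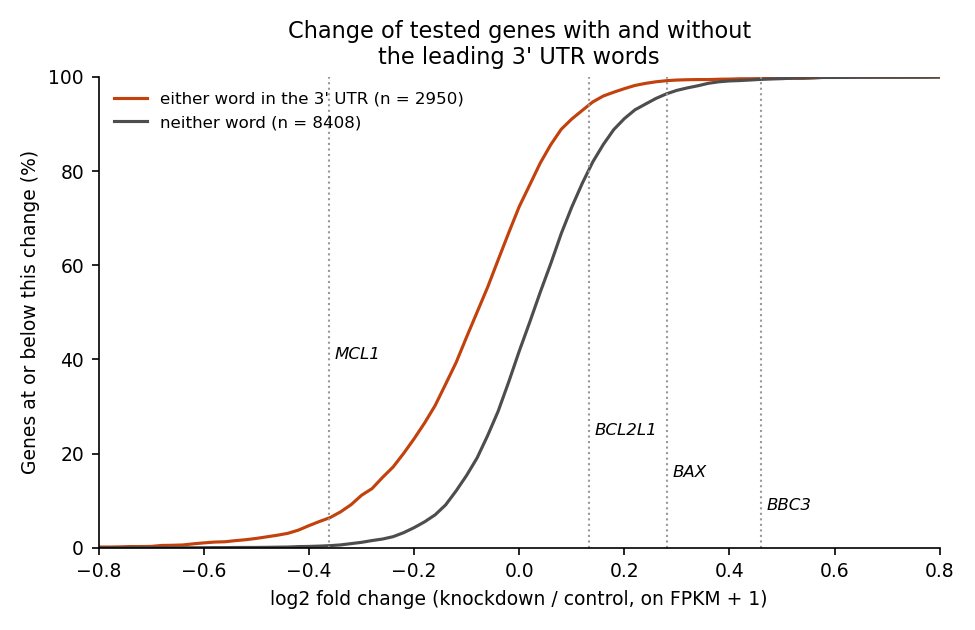
Cumulative share of tested genes, in percent, at or below each log2 fold change, for 2950 genes with either 3′ UTR word and 8408 with neither, with dotted lines at the log2 fold changes of MCL1, BCL2L1, BAX and BBC3. The curve of genes with a word lies to the left, with a median of -0.08 against 0.03.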

How the data were processed

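The 6 libraries were made from mRNA-enriched total RNA with a directional kit, per the labels' protocols. The authors deposited FPKM values with a gene length for 58735 genes. The aligner, counting method and strand setting are not given in the sources used here. The submitters' processing notes list a mouse build, but all 58735 identifiers and positions equal GENCODE 29 on GRCh38 (58708 names equal), which was used for transcripts, sequences and coordinates. FPKM times gene length gave whole reads for 100% of values (tolerance 0.01), and the deposited values already carried a scaling factor per library that equals median-of-ratios scaling.

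Tests used log2(FPKM + 1), a scale on which changes of low genes are understated. The 14847 genes with at least 0.5 FPKM in 3 of 6 libraries were tested with limma 3.58.1 in R 4.3.3 (moderated variances with a trend, two-sided, Benjamini-Hochberg over all tested genes, threshold 0.05). Library pairs within a group varied 1.91 to 2.69 times as much as counting alone would give.

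Named genes were all 10 members, TRIM15, up to 4 called genes with the largest change per list, and 3 genes most like MCL1, BAX and BBC3. FBXW7, GSK3A and genes listed as untested were added after their values were seen. The members and lists were chosen with earlier results of these data known. Some planned list genes and 1 planned list are not reported here, and not every gene taken by the rule is described. A planned display of protein sequence was replaced by coding sequence. Alternatives covered pseudocounts, filters, scaling, variance trend, replicate block, voom on recovered reads and leaving out each library. Plain library-size scaling and transcript length were added after seeing the data.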

Additional observations from a re-analysis of the deposited data

How the results depend on the processing

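Depth limits the low members most, since BBC3 and PMAIP1 had 217 to 412 and 245 to 331 reads per library. MCL1, BCL2L1, BAX and BBC3 kept direction and call in all 16 alternatives, with highest adjusted p values of 0.00516, 0.0346, 0.0183 and 0.0485. Of these 16, median-of-ratios scaling equals the deposited scaling and could change nothing. BCL2L2, BAK1, BID, PMAIP1 and BCL2L11 were called in 0 of 16. BMF, at a log2 fold change of -0.11, lost its call without a filter (-0.11, adjusted p = 0.0800), with plain library-size scaling (-0.095), without a variance trend (-0.11), by voom (-0.10) and without any single library (-0.13 to -0.094). The sign turned for PMAIP1 without knockdown replicate 3 (0.038), in a range of -0.076 to 0.038 over omitted libraries. It turned for BCL2L11 with plain library-size scaling (0.0103), by voom (0.0106), without control replicate 2 (0.040) and without knockdown replicate 2 (0.030), in a range of -0.034 to 0.040. Over all genes, calls numbered 1888 with no filter, where 32030 genes shared the adjustment, 4182 by voom (2360 higher, 1822 lower) and 1770 to 2339 with a library left out (792 to 1115 higher, 978 to 1224 lower). Same-numbered libraries of the groups did not deviate together (r 0.00862 to 0.0133), so the numbers were not taken as pairs, although each library correlated best with its own number. With the replicate number as a block, calls were 883 higher and 1030 lower, BMF was not called (-0.11, adjusted p = 0.114), and the other members kept their calls. With principal transcript length, the log2 difference was 0.29 for the effector to anti-apoptotic ratio, -0.058 for the anti-apoptotic sum and 0.23 for the effector sum, against 0.22, -0.07 and 0.15. Without the highest member of each class, it was 0.35 for the BH3-only to anti-apoptotic ratio, -0.32 for the anti-apoptotic sum, -0.12 for the effector sum and 0.028 for the BH3-only sum, the effector and BH3-only sums having turned sign. For BMF, PMAIP1 and BCL2L11 the cause was not tested.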
